A study of Mus musculus with 9 samples.

Results

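The 10 chemokine genes of mouse liver described here are Ccl2, Ccl5, Ccl6, Ccl9 and Ccl24 of the CC class, and Cxcl1, Cxcl9, Cxcl10, Cxcl12 and Cxcl13 of the CXC class. They were taken by symbol, and they make up 10 of the 35275 entries in the deposited table. Total liver RNA was sequenced from C57BL/6 mice in 3 groups of 3 libraries each. One group received AdipoRonPEG5, which the study names a PEGylated AdipoRon (carrying polyethylene glycol), one received AdipoRon, an orally active synthetic activator of AdipoR1 and AdipoR2, and one received the vehicle, PBS. Injections were made 2 times daily over 5 days. The labelled 5 mg/kg covers PBS as well as the compounds, and what dose of AdipoRon or AdipoRonPEG5 it stands for cannot be told. The labels also mention a further compound, AdipoRonPEG6HTL, which is not analysed here. For the mice, no sex, age or diet is given in the sources used here. Labels do not say whether the 3 libraries of a group came from separate animals, and p-values then measure only the spread between these libraries, which may be technical.

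Chemokines are small secreted proteins that bind G protein-coupled receptors on leukocytes and direct their movement along a gradient, which endothelial heparan sulfate holds in place. Several of them are induced by inflammatory signals: interferon gamma acts on Cxcl9 and Cxcl10, and tumour necrosis factor and interleukin-1 act through NF-kappaB on Ccl2, Cxcl1 and others. Cxcl12 and Cxcl13 are better known for the steady placing of cells in tissues. In the liver, Kupffer cells, endothelial cells, stellate cells and hepatocytes can all be sources, and bulk RNA does not separate them.

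Sequencing gave 39473195 counts in vehicle library 1 and 13942322 to 18508950 in the other 8 libraries. All 10 genes had counts in all 9 libraries and passed the filter on low counts, which kept 13151 genes. A floor of 3 counts corresponds to between 0.0771 and 0.224 CPM (counts scaled to a common library size by the TMM method), and Ccl2 lay near it in vehicle livers. The labelled tissue was seen in 7 hepatocyte markers, which summed to at least 72700 CPM in each library. Summed over 6 acute phase genes, which hepatocytes induce in inflammation, AdipoRonPEG5 library 1 (12050 CPM) and vehicle library 3 (20370 CPM) stood apart, against at most 6469 CPM in the other 7 libraries. Where leaving out both libraries ended or made the call of a named gene, this is stated beside it.

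With AdipoRonPEG5, 5 of the 10 chemokine genes rose, 0 fell and 5 did not pass (edgeR's quasi-likelihood test, with p-values adjusted over all genes by Benjamini-Hochberg and a threshold of 0.05). Across all genes tested in this comparison 17.2% were called, 9.55% as higher and 7.63% as lower. The risers were Cxcl9 and Cxcl10, which attract T and NK cells, and Ccl2, Ccl5 and Ccl6, which attract monocytes, T cells and macrophages. With AdipoRon, 2 of the 10 rose, Cxcl9 and Cxcl10, and 0 fell, where 5.2% of all genes were called, 3.8% as higher and 1.4% as lower. Between the compounds, 1 of the 10 passed, Ccl9, which was higher with AdipoRonPEG5 (5.39% of all genes called, 2.68% as higher and 2.71% as lower). The 10 genes had a median log2 fold change of 1.58 with AdipoRonPEG5, 1.25 with AdipoRon and 0.35 between the compounds, beside medians of -0.0013, 0.0057 and -0.013 over all genes. The first and second of these comparisons share the vehicle libraries. The 10 genes and the lists below were chosen with earlier results of these data known. Their counts, shares and medians beside those of all genes are therefore a description and not a test.

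The counts of called chemokine genes depended on single libraries. For AdipoRonPEG5 the count was 3 without AdipoRonPEG5 library 1 or 3. For AdipoRon it was 0 without vehicle library 2 or AdipoRon library 1, and 1 without vehicle library 1 or 3. Between the compounds it was 0 without AdipoRon library 2 or 3 or AdipoRonPEG5 library 2 or 3, and 2 without vehicle library 3 or AdipoRon library 1.

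**Figure D1:**
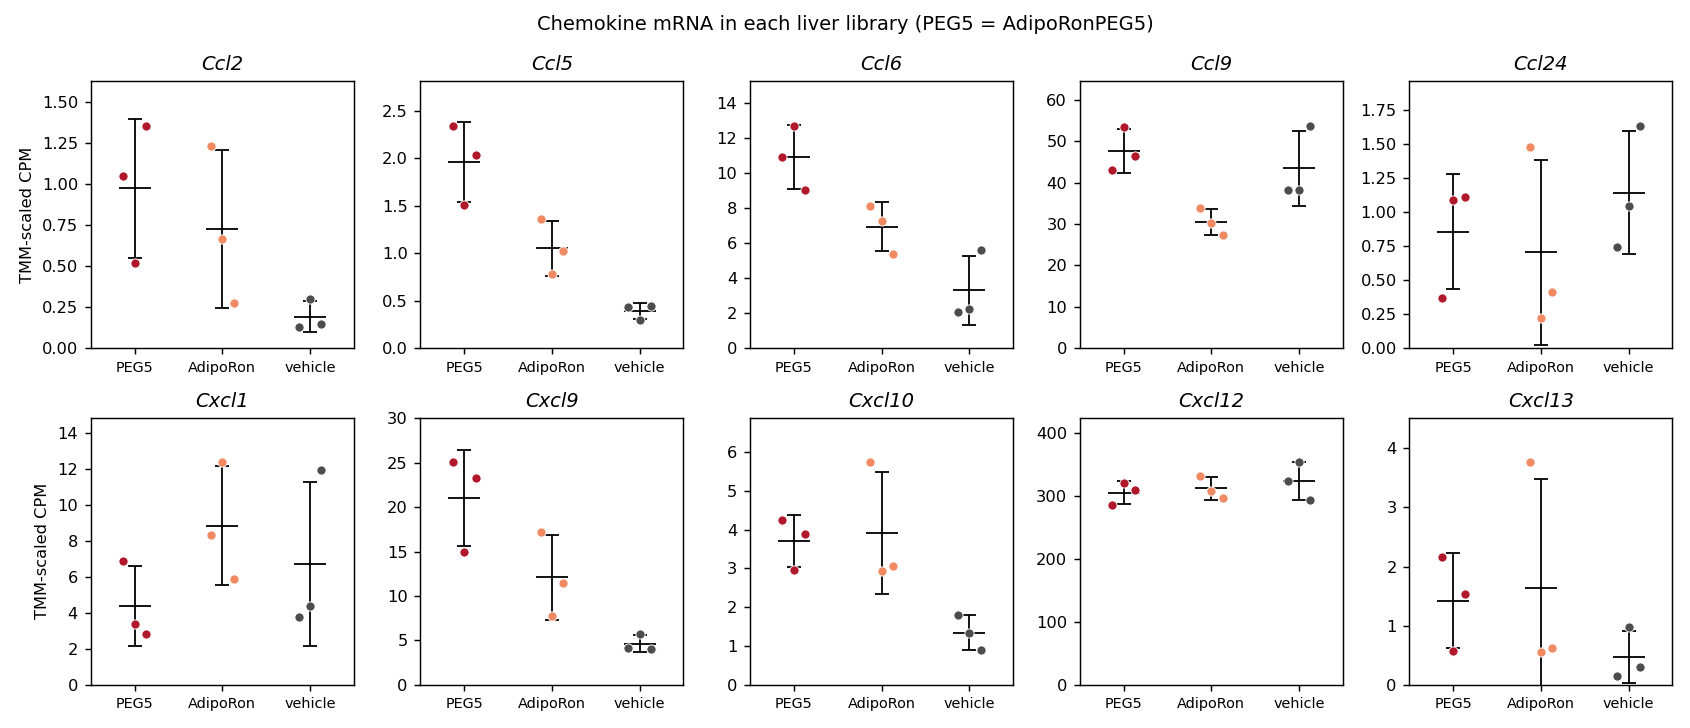
TMM-scaled CPM of the 10 chemokine genes in each library of the AdipoRonPEG5, AdipoRon and vehicle groups, 1 panel a gene with its own linear axis from 0. Points are libraries 1 to 3 from left to right, the horizontal line is the mean and the bars are the SD of 3, with the lower bar of Cxcl13 in AdipoRon livers running below the axis. Ccl5 forms steps from AdipoRonPEG5 through AdipoRon to vehicle, and Cxcl9 does so by its means, with the compounds overlapping. Cxcl12 stays between 286 and 354 CPM in all groups, and Cxcl1 scatters widely.

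Levels between genes were read from the FPKM that the authors deposited, which scale counts by gene length. Cxcl12, which holds stem cells and lymphocytes in tissues, was the leading chemokine transcript in every group: of 39 chemokine ligands in the table it ranked first, at 55.1 ± 3.96 FPKM in AdipoRonPEG5, 57.1 ± 3.84 in AdipoRon and 55.2 ± 6.14 in vehicle livers (SD, n = 3 each). It made up on average 44.5% of the summed ligand FPKM in AdipoRonPEG5 livers, 48.7% in AdipoRon livers and 52.5% in vehicle livers. Ccl9, a ligand of Ccr1 made by macrophages and other myeloid cells of the mouse, came next among the 10, at 16.1 ± 2.09 FPKM in AdipoRonPEG5, 10.4 ± 1.17 in AdipoRon and 13.8 ± 2.45 in vehicle livers. In AdipoRon livers its range overlapped that of Cxcl1 (9.55 ± 3.51 FPKM), and in vehicle livers Cxcl1 reached 11.7 FPKM in library 3.

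Below these, the order differed between the groups. In AdipoRonPEG5 livers Ccl6 (7.71 ± 1.49 FPKM) and Cxcl9 (7.34 ± 1.78) followed with overlapping ranges, then Cxcl1 (4.67 ± 2.37), Cxcl10 (3.43 ± 0.57), Ccl5 (2.97 ± 0.61), Cxcl13 (1.23 ± 0.69), Ccl2 (0.90 ± 0.37) and Ccl24 (0.67 ± 0.33). In AdipoRon livers Ccl6 was at 4.95 ± 1.03 FPKM, Cxcl9 at 4.29 ± 1.73, Cxcl10 at 3.69 ± 1.52, Ccl5 at 1.62 ± 0.46, Cxcl13 at 1.45 ± 1.63, Ccl2 at 0.68 ± 0.46 and Ccl24 at 0.56 ± 0.55. In vehicle livers Ccl6 was at 2.17 ± 1.23 FPKM, Cxcl9 at 1.53 ± 0.33, Cxcl10 at 1.19 ± 0.43, Ccl24 at 0.84 ± 0.31, Ccl5 at 0.56 ± 0.12, Cxcl13 at 0.39 ± 0.36 and Ccl2 at 0.17 ± 0.082. Ccl24 thus stood above Ccl5 and Ccl2 by its mean in vehicle livers and below both with either compound. The ranges of Ccl24 and Ccl5 overlapped in vehicle and AdipoRon livers, and those of Ccl24 and Ccl2 overlapped with either compound.

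The 8 genes other than Cxcl12 and Ccl9 together made up 27.7%, 19.3% and 23.1% of the ligand FPKM in the AdipoRonPEG5 libraries 1 to 3. Their share was 26.1%, 22.7% and 18.7% in the AdipoRon libraries and 9.62%, 10.5% and 18.3% in the vehicle libraries. Vehicle library 3 was the highest of its group and lay just under the lowest library of either compound.

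**Figure D2:**
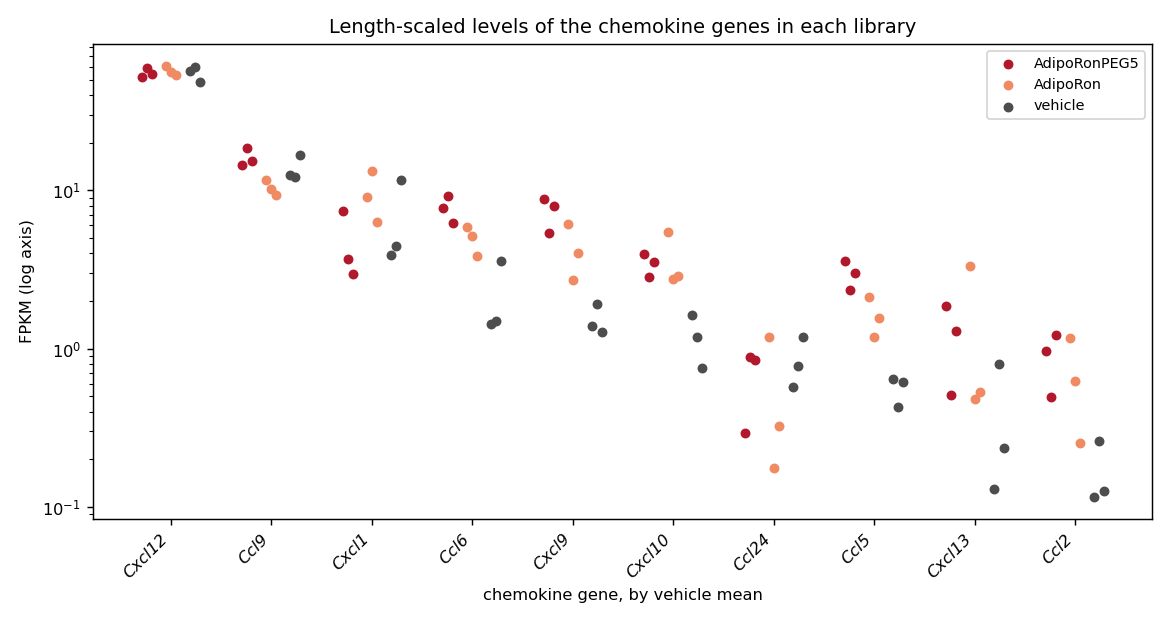
FPKM of the 10 chemokine genes in each library, on a log axis, ordered by the vehicle mean, with AdipoRonPEG5 left, AdipoRon in the middle and vehicle right within each gene. Cxcl12 lies at 48.4 to 61.3 FPKM in all 9 libraries, and Ccl2 has the lowest mean in vehicle livers.

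Cxcl9 and Cxcl10 are ligands of Cxcr3, the receptor that brings activated T cells and NK cells into interferon-exposed tissue. They lie close together on chromosome 5, with Art3 between them, and their promoters are shown because the genes rose together. The sequences are the 250 bases before each start from RefSeq (GRCm38.p6, minus strand), Cxcl10 at chr5:92348890-92349139 and Cxcl9 at chr5:92328080-92328329, with capitals on matches to the searched motifs.
Cxcl10: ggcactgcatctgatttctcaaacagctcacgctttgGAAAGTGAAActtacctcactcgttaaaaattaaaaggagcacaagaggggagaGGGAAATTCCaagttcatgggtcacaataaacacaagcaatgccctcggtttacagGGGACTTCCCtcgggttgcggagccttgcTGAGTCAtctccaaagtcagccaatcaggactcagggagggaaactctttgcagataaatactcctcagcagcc
Cxcl9: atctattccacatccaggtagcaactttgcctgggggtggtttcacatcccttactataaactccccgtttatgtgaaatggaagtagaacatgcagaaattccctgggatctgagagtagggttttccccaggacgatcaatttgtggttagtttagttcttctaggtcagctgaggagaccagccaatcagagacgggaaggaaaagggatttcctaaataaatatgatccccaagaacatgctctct
The motifs were searched on both strands: the interferon-stimulated response element (ISRE, GAAA, any 2 bases, GAAA), the gamma-activated sequence (GAS, TTCNNNGAA), the NF-kappaB consensus and AP-1 (TGANTCA). The Cxcl10 window held an ISRE at 213 to 204 bases before the start, NF-kappaB matches at 159 to 150 and 103 to 94, and AP-1 at 74 to 68. The Cxcl9 window held no exact match to these letters. Sites that differ from them by a base, and other known forms of these elements, were not searched. Of 32851 windows in the RefSeq table, 2.98% held the ISRE letters, 7.02% GAS, 3.9% the NF-kappaB consensus and 6.75% AP-1. Of the 7 windows found for the 10 genes, 1 held the ISRE letters, 0 GAS, 3 the NF-kappaB consensus and 2 AP-1. These windows are too few for the counts to be read against the shares.

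Cxcl9 was at 25.05, 14.9 and 23.2 CPM in the AdipoRonPEG5 libraries, at 17.2, 7.72 and 11.4 CPM in the AdipoRon libraries and at 4.11, 5.76 and 4.02 CPM in the vehicle libraries. Every library of either compound lay above every vehicle library, and the compounds overlapped each other. Cxcl9 rose with AdipoRonPEG5 by a log2 fold change of 2.20 ± 0.29 (SE; adjusted p = 0.0010) and by 1.40 ± 0.30 with AdipoRon (adjusted p = 0.0247). The AdipoRonPEG5 call stood in all alternatives. The AdipoRon call ended without vehicle library 1, 2 or 3, without AdipoRon library 1, and without both libraries of high acute phase genes (1.34, adjusted p = 0.0584), and its adjusted p over all alternatives ran from 6.79e-05 to 0.085. In bulk liver, more cells of a type and more RNA per cell cannot be told apart.

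Cxcl10 was at 4.26, 2.96 and 3.88 CPM with AdipoRonPEG5, at 5.74, 2.94 and 3.08 CPM with AdipoRon and at 1.80, 1.34 and 0.89 CPM with vehicle. The compounds overlapped, with AdipoRon library 1 the highest, and both lay above vehicle without overlap. It rose by 1.37 ± 0.33 on the log2 scale with AdipoRonPEG5 (adjusted p = 0.0159) and, with AdipoRon, by 1.45 ± 0.33 (adjusted p = 0.0298). The AdipoRonPEG5 call ended without vehicle library 2, AdipoRonPEG5 library 1 or 3, or both libraries of high acute phase genes (1.07, adjusted p = 0.0838; 0.000969 to 0.0838 over all alternatives). The AdipoRon call ended without vehicle library 2 or 3, AdipoRon library 1 or those libraries together, and with only the compared groups fitted (adjusted p from 0.00113 to 0.0925). In FPKM, Cxcl9 stood at 2.22, 1.9 and 2.25 times Cxcl10 in the AdipoRonPEG5 libraries, at 1.13, 0.988 and 1.4 times in the AdipoRon libraries and at 0.861, 1.61 and 1.69 times in the vehicle libraries. The ratio was higher in all 3 AdipoRonPEG5 libraries than in any other library.

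Ccl2, the main ligand of Ccr2, draws monocytes out of bone marrow and into tissue. Ccl2 had 17, 10 and 22 counts in AdipoRonPEG5 libraries, 20, 12 and 4 in AdipoRon libraries and 5, 4 and 2 in vehicle libraries, or 1.05, 0.52 and 1.36 CPM, 1.23, 0.67 and 0.27 CPM, and 0.13, 0.30 and 0.15 CPM. AdipoRonPEG5 livers lay above vehicle livers throughout, and AdipoRon library 3 fell within the vehicle range. Ccl2 rose with AdipoRonPEG5 by 2.44 ± 0.64 on the log2 scale (adjusted p = 0.0227). The call ended without vehicle library 1, AdipoRonPEG5 library 1 or 3, or both libraries of high acute phase genes (2.32, adjusted p = 0.0825; 0.00692 to 0.109 over all alternatives). A filter at a mean of 1 CPM removed the gene. For AdipoRon the log2 fold change was 2.05 ± 0.67 (adjusted p = 0.0966), or 1.45 without AdipoRon library 1.

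Ccl5 (RANTES), made by activated T cells, NK cells and macrophages, is a ligand of Ccr1 and Ccr3, among others. It was at 2.35, 1.5 and 2.04 CPM in AdipoRonPEG5 libraries, at 1.36, 0.78 and 1.03 CPM in AdipoRon libraries and at 0.44, 0.30 and 0.45 CPM in vehicle libraries. No group overlapped another, with AdipoRonPEG5 highest and vehicle lowest. Ccl5 rose with AdipoRonPEG5 by 2.25 ± 0.33 on the log2 scale (adjusted p = 0.00163), and the call stood in all alternatives (adjusted p of at most 0.0109). With AdipoRon the log2 fold change of 1.36 ± 0.36 did not pass (adjusted p = 0.0522). It passed with total-count scaling (adjusted p = 0.0341; 0.0341 to 0.166 over all alternatives).

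Ccl6 and Ccl9 are rodent CC chemokines of macrophages and other myeloid cells that bind Ccr1. Ccl5, Ccl9 and Ccl6 are consecutive genes on chromosome 11, and the promoters of Ccl9 and Ccl6 are shown because these neighbours differed in their response. The 250 bases before each start are from RefSeq (GRCm38.p6, minus strand), Ccl6 at chr11:83593088-83593337 and Ccl9 at chr11:83578637-83578886, with capitals on motif matches.
Ccl6: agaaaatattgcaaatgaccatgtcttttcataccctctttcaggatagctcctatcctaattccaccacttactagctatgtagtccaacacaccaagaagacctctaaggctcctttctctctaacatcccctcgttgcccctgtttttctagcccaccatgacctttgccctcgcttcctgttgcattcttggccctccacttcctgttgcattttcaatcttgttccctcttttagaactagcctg
Ccl9: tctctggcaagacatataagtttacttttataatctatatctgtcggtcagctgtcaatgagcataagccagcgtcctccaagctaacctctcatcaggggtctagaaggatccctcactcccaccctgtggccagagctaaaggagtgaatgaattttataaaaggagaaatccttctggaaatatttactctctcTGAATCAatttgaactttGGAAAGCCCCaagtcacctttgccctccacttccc
The Ccl9 window held AP-1 letters at 53 to 47 bases before the start and an NF-kappaB match on the opposite strand at 35 to 26. The Ccl6 window held no exact match to the searched motifs.

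Ccl6 was at 10.9, 12.7 and 9.06 CPM in AdipoRonPEG5 libraries, at 8.14, 7.28 and 5.40 CPM in AdipoRon libraries and at 2.08, 2.24 and 5.58 CPM in vehicle libraries. AdipoRonPEG5 lay above both other groups, and vehicle library 3 reached into the AdipoRon range. Ccl6 rose with AdipoRonPEG5 by 1.80 ± 0.33 on the log2 scale (adjusted p = 0.00438), in all alternatives (adjusted p of at most 0.0225). With AdipoRon the log2 fold change of 1.15 ± 0.33 did not pass (adjusted p = 0.0710). Without vehicle library 3 it was 1.69 and passed (adjusted p = 0.00502). It was also 1.69 and passed without both libraries of high acute phase genes (adjusted p = 0.00978), and it passed with total-count scaling, no filter, DESeq2 or limma-voom (adjusted p from 0.00502 to 0.2 over all alternatives).

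Ccl9 did not follow its neighbours. The gene was at 42.9, 53.3 and 46.5 CPM in AdipoRonPEG5 libraries, at 33.8, 30.2 and 27.4 CPM in AdipoRon libraries and at 38.2, 38.2 and 53.8 CPM in vehicle libraries. The AdipoRon libraries were the 3 lowest of the 9. Its log2 fold change was -0.51 ± 0.14 with AdipoRon (adjusted p = 0.0651), which passed with no filter (adjusted p = 0.0177) or DESeq2 (0.0198; 0.0177 to 0.162 over all alternatives). With AdipoRonPEG5 it was 0.14 ± 0.14 (adjusted p = 0.543), and 0.39 without both libraries of high acute phase genes, which passed (adjusted p = 0.0464; 0.0464 to 0.88 over all alternatives). In FPKM, Ccl9 stood at 1.88, 2.01 and 2.46 times Ccl6 in AdipoRonPEG5 libraries and at 1.99, 1.99 and 2.43 times in AdipoRon libraries, against 8.8, 8.16 and 4.62 times in vehicle libraries. All 6 libraries of the compounds had a lower ratio than any vehicle library.

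Cxcl1, a ligand of Cxcr2 that recruits neutrophils, did not pass in any comparison. Its promoter is shown as that of a classical NF-kappaB target (RefSeq, GRCm38.p6, plus strand, chr5:90890995-90891244), with capitals on a pair of overlapping NF-kappaB matches, 1 on each strand, at 71 to 61 bases before the start.
Cxcl1: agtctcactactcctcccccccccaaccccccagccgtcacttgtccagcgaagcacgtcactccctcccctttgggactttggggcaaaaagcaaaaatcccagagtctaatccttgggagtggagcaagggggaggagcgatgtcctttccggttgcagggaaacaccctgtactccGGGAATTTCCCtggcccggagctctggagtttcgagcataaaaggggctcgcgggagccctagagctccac
Cxcl1 was at 6.91, 3.37 and 2.84 CPM in AdipoRonPEG5 libraries, at 8.33, 12.4 and 5.88 CPM in AdipoRon libraries and at 3.75, 4.41 and 12.0 CPM in vehicle libraries. AdipoRonPEG5 library 1 and vehicle library 3, the pair with high acute phase genes, were the highest of their groups. The log2 fold change was -0.57 ± 0.48 for AdipoRonPEG5 (adjusted p = 0.451) and, for AdipoRon, 0.46 ± 0.46 (adjusted p = 0.602). Without vehicle library 3 these were 0.11 and 1.14.

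Ccl24 (eotaxin-2), a ligand of the eosinophil receptor Ccr3, was low throughout and did not pass in any comparison. It was at 0.37, 1.09 and 1.11 CPM in AdipoRonPEG5 libraries, at 1.48, 0.22 and 0.41 CPM in AdipoRon libraries and at 0.75, 1.05 and 1.64 CPM in vehicle libraries. All 3 groups overlapped. The log2 fold change was -0.32 ± 0.60 with AdipoRonPEG5 and -0.62 ± 0.63 with AdipoRon (-1.79 without AdipoRon library 1). With AdipoRonPEG5 the sign turned without vehicle library 3 (0.0099), without AdipoRonPEG5 library 1 (0.026) or without both (0.36). The eosinophil markers Epx, Prg2 and Il5ra had 0 counts in all 9 libraries, and Ccr3 had 3, 2 and 0 counts over the AdipoRonPEG5, AdipoRon and vehicle groups.

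Cxcl12, made by stellate and endothelial cells and bound by Cxcr4 and Ackr3, did not pass in any comparison. It was at 286, 321 and 310 CPM in AdipoRonPEG5 libraries, at 333, 309 and 296 CPM in AdipoRon libraries and at 324, 354 and 294 CPM in vehicle libraries. The groups overlapped, with log2 fold changes of -0.084 with AdipoRonPEG5 (95% confidence interval -0.29 to 0.12) and -0.051 with AdipoRon (-0.26 to 0.16). The AdipoRon value turned positive with total-count scaling (0.049) and without vehicle library 2 (0.011). Cxcl13, which guides B cells through Cxcr5, was at 2.16, 0.57 and 1.54 CPM in AdipoRonPEG5 libraries, at 3.76, 0.56 and 0.62 CPM in AdipoRon libraries and at 0.15, 0.97 and 0.30 CPM in vehicle libraries. The groups overlapped, and AdipoRon library 1 stood above the rest of its group. Its log2 fold changes were 1.83 ± 0.92 for AdipoRonPEG5 (adjusted p = 0.201) and, for AdipoRon, 2.05 ± 0.91 (adjusted p = 0.210). Single libraries moved both: the AdipoRonPEG5 value was 1.13 without vehicle library 1 and 2.79 without vehicle library 2, and the AdipoRon value was 1.35 and 3.01 in these cases and 0.56 without AdipoRon library 1.

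The difference between the compounds was tested for all 10 genes in the same fit, with p-values adjusted over all genes. The compounds differ by PEGylation and share the labelled times. Whether their doses were matched cannot be told from the labels, so that dose and PEGylation cannot be told apart. Ccl9 was higher with AdipoRonPEG5 than with AdipoRon (log2 difference 0.64, 95% confidence interval 0.33 to 0.96, adjusted p = 0.0271). The Ccl9 call ended without AdipoRon library 2 or 3 or AdipoRonPEG5 library 2 or 3 (adjusted p from 0.00139 to 0.107 over all alternatives). Ccl5 (0.89, interval 0.24 to 1.55, adjusted p = 0.109) and Cxcl9 (0.80, 0.20 to 1.40, adjusted p = 0.117) had intervals above 0 and did not pass the adjustment. Cxcl9 passed with no filter, with DESeq2 and without AdipoRon library 1 (adjusted p from 0.0307 to 0.281 over all alternatives). Ccl6 differed by 0.65 (-0.017 to 1.32, adjusted p = 0.243), with no overlap of the groups, and passed without vehicle library 3 (adjusted p = 0.0499; 0.0499 to 0.483 over all alternatives).

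Cxcl1 ran opposite, at -1.03 between AdipoRonPEG5 and AdipoRon (interval -2.07 to -0.00034, adjusted p = 0.229). Without both libraries of high acute phase genes it was -1.51 and passed (adjusted p = 0.0246; 0.0246 to 0.516 over all alternatives). Cxcl10 showed no difference that could be called (-0.087, interval -0.75 to 0.57), nor did Cxcl12 (-0.033, -0.24 to 0.17, and 0.021 without both of those libraries). Their intervals allow a change of up to 0.75 and 0.24 on the log2 scale. Wider intervals were left for Ccl2 (0.39, -0.74 to 1.52, and 0.98 without AdipoRon library 1), Ccl24 (0.30, -1.13 to 1.73, 1.47 without AdipoRon library 1 and -0.15 without AdipoRon library 2) and Cxcl13 (-0.23, -1.90 to 1.44, and 1.26 without AdipoRon library 1). The groups did not overlap for 3 of the 10 genes, Ccl5, Ccl6 and Ccl9, each higher with AdipoRonPEG5, where 13.9% of all genes tested were higher without overlap.

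**Figure D3:**
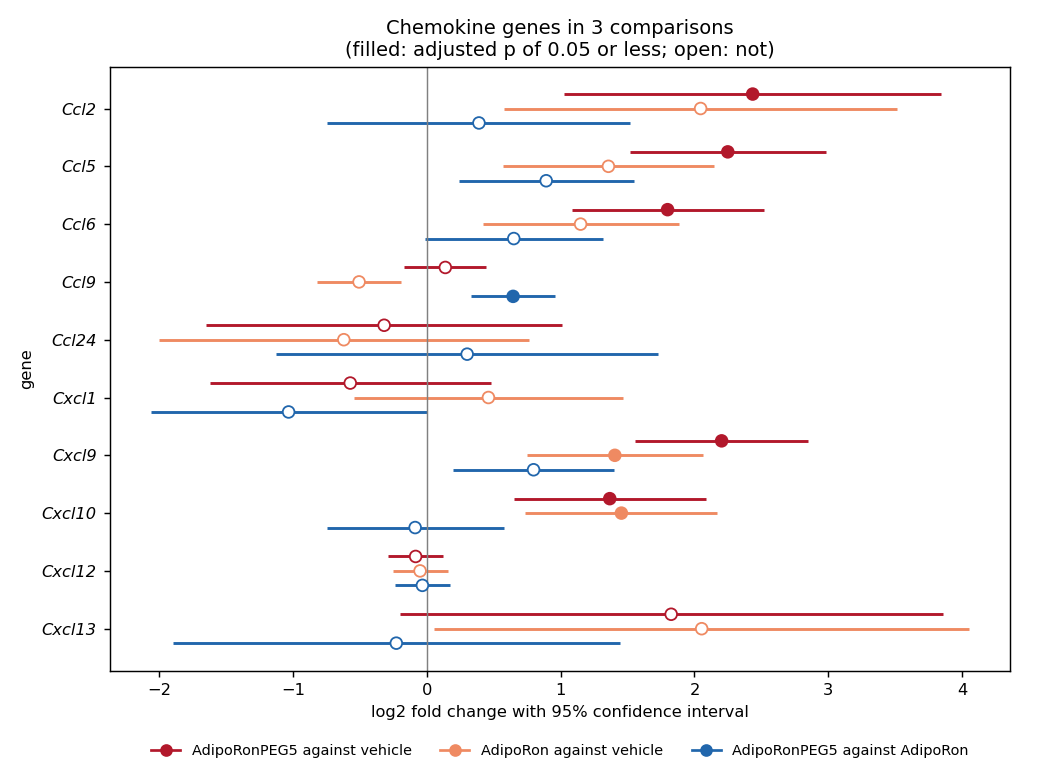
Log2 fold changes of the 10 chemokine genes from edgeR with 95% confidence intervals, for each compound against vehicle and for AdipoRonPEG5 against AdipoRon. Filled points passed an adjusted p of 0.05. The 5 filled AdipoRonPEG5 points lie between 1.37 and 2.44, and the intervals of Cxcl12 are the narrowest of the 10 genes.

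Of the 18 signalling chemokine receptors, 6 had enough counts to be tested. With AdipoRonPEG5 2 rose (33.3%, beside 17.2% of all genes called), 0 fell and 4 did not pass, with AdipoRon 0 passed, and between the compounds 1 was higher with AdipoRonPEG5. Ccr2, the monocyte receptor of Ccl2, was at 4.01, 3.37 and 3.51 CPM in AdipoRonPEG5 libraries, at 1.23, 1.56 and 1.09 CPM in AdipoRon libraries and at 0.85, 0.90 and 1.04 CPM in vehicle libraries. AdipoRonPEG5 livers stood apart from both other groups. Ccr2 rose with AdipoRonPEG5 by 1.98 ± 0.23 against vehicle (adjusted p = 0.000462) and differed by 1.47 ± 0.22 from AdipoRon (adjusted p = 0.00573), and both calls stood in all alternatives. In AdipoRon livers the log2 fold change was 0.51 ± 0.25 (adjusted p = 0.26). For its ligand Ccl2 the difference between the compounds was 0.39 and did not pass.

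Cxcr4, Cxcr5 and Ackr3, the receptors of Cxcl12 and Cxcl13, were tested and did not pass in any comparison. Cxcr5 was at 0.67 to 1.05 CPM in vehicle libraries, without overlap above AdipoRonPEG5 (0.57 to 0.62 CPM) and AdipoRon (0.56 to 0.62 CPM). It had as few as 9 counts in a library. Cxcr3, the receptor of Cxcl9 and Cxcl10, was too low to test, with 4, 11 and 10 counts in AdipoRonPEG5 libraries, 4, 7 and 3 in AdipoRon libraries and 12, 2 and 0 in vehicle libraries. Ccr1 (11, 6 and 6 counts over the AdipoRonPEG5, AdipoRon and vehicle groups), Cxcr2 (7, 1 and 4) and Ccr3 were also too low.

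**Figure D4:**
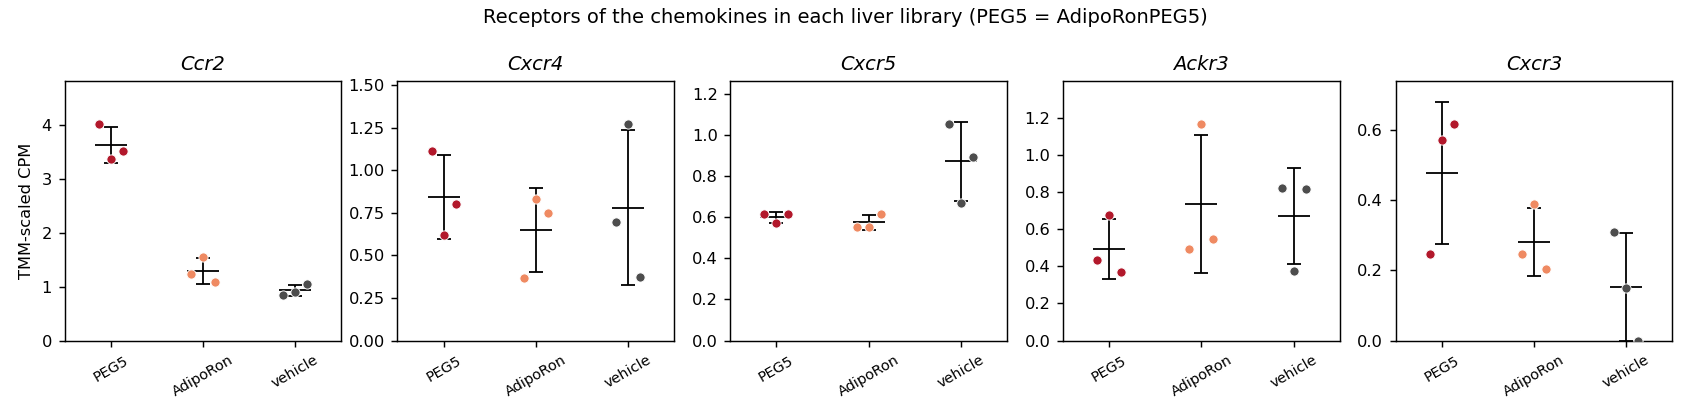
TMM-scaled CPM of 5 receptors of the chemokines in each library, with the mean and SD of 3 and a linear axis from 0. Ccr2 is at 3.37 CPM or more in the AdipoRonPEG5 libraries and at 1.56 CPM or less in all others, whereas Cxcr4 and Ackr3 overlap between groups. Cxcr5 is at 0.67 CPM or more with vehicle and at 0.62 CPM or less with either compound.

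Of 29 other chemokine ligands in the deposited data, 7 could be tested, and 1 rose with AdipoRonPEG5 (0 without vehicle library 1 or AdipoRonPEG5 library 2, and 2 without vehicle library 3). This share of 14.3% was below the 17.2% of all genes called in the comparison. The riser was Cxcl16, a membrane-bound chemokine and scavenger receptor of macrophages, at 6.17, 7.42 and 6.23 CPM in AdipoRonPEG5 libraries, 7.77, 5.50 and 4.58 CPM in AdipoRon libraries and 3.52, 4.26 and 3.50 CPM in vehicle libraries. Both compounds lay above vehicle. Its log2 fold change was 0.83 ± 0.20 with AdipoRonPEG5 (adjusted p = 0.0182; 0.00369 to 0.074 over all alternatives) and 0.67 ± 0.20 with AdipoRon (adjusted p = 0.0817). Without both libraries of high acute phase genes the AdipoRonPEG5 value was 0.84 and did not pass (adjusted p = 0.0569). Of 5 atypical receptors, which bind chemokines without signalling, 1 rose with AdipoRonPEG5 (20%, near the share of all genes), Ccrl2 (1.13 ± 0.33, adjusted p = 0.0392). The Ccrl2 call ended without vehicle library 2 or 3, AdipoRon library 2 or 3 or any 1 AdipoRonPEG5 library, with a replicate block, with only the compared groups fitted and with vehicle library 1 thinned (adjusted p from 0.0329 to 0.142 over all alternatives). Without both libraries of high acute phase genes Ccrl2 was at 0.82 (adjusted p = 0.142). With AdipoRon 0 genes of either list passed.

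Of 9 tested genes of the interferon gamma axis, 5 rose with AdipoRonPEG5 (55.6%, beside 17.2% of all genes called) and 2 with AdipoRon (22.2%, beside 5.2%), and 0 fell. The AdipoRon count was 0 without vehicle library 1 or 2, AdipoRon library 1 or 2 or AdipoRonPEG5 library 2, and 1 without any other library or without both libraries of high acute phase genes. Ifng itself had 6, 0 and 1 counts in AdipoRonPEG5 libraries, 0, 0 and 1 in AdipoRon libraries and 0 in each vehicle library, too few to test. Irf1, a transcription factor induced by interferon, rose by 0.64 ± 0.16 with AdipoRonPEG5 (adjusted p = 0.0216; 0.00287 to 0.0767 over all alternatives), a call that ended without vehicle library 1 or 2 or AdipoRonPEG5 library 1 or 2.

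Of 12 genes of the NF-kappaB axis, 3 rose and 1 fell with AdipoRonPEG5 (2 called without vehicle library 2), and 1 rose with AdipoRon. These are 33.3% and 8.33% called, beside 17.2% and 5.2% of all genes. Tnf, the tumour necrosis factor gene, had 13, 15 and 6 counts in AdipoRonPEG5 libraries and 14, 11 and 14 in AdipoRon libraries, against 4, 0 and 1 in vehicle libraries. Its fitted log2 fold change was 3.03 ± 0.62 for AdipoRonPEG5 (adjusted p = 0.00685) and, for AdipoRon, 3.32 ± 0.60 (adjusted p = 0.0108), or 3.87 and 4.16 without vehicle library 1. Il1b, the interleukin-1 beta gene, rose by 1.56 ± 0.41 with AdipoRonPEG5 (adjusted p = 0.0249; 0.0141 to 0.104 over all alternatives), a call that ended without vehicle library 2 or AdipoRonPEG5 library 2 or 3. Nfkbia, the inhibitor that NF-kappaB itself induces, was lower with AdipoRonPEG5, at 38.4, 39.2 and 43.5 CPM against 56.7, 68.5 and 52.9 CPM with vehicle (log2 fold change -0.55 ± 0.10, adjusted p = 0.00515).

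Of 16 genes that carry the signal from chemokine receptors to the cytoskeleton, 8 rose with AdipoRonPEG5 (50%) and 6 with AdipoRon (37.5%). Between the compounds 0 differed (1 without vehicle library 3). Of all genes tested, 17.2%, 5.2% and 5.39% were called in these comparisons. Rac2, a blood cell GTPase, was at 11.7, 10.2 and 11.7 CPM in AdipoRonPEG5 libraries, at 11.5, 9.11 and 8.47 CPM in AdipoRon libraries and at 2.06, 2.17 and 2.31 CPM in vehicle libraries. The compounds overlapped each other well above vehicle (log2 fold change 2.37 ± 0.16 with AdipoRonPEG5, adjusted p = 2.01e-05). Vav1, its exchange factor, rose by 1.85 ± 0.20 with AdipoRonPEG5 (adjusted p = 0.0004). Of 12 genes that present or trim chemokines, 2 rose and 2 fell with AdipoRonPEG5 (33.3% called, beside 17.2% of all genes). The heparan sulfate carrier Sdc3 rose by 1.39 ± 0.17 (adjusted p = 0.000584), whereas Sdc4, another syndecan, was at 321, 359 and 371 CPM in AdipoRonPEG5 libraries against 578, 688 and 713 CPM in vehicle libraries (-0.91 ± 0.13, adjusted p = 0.00158).

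Kupffer cell markers rose with both compounds. Of 10 such markers, 10 rose with AdipoRonPEG5 and 9 with AdipoRon, and 0 fell. Between the compounds 0 differed (1 without AdipoRon library 1). Of all genes tested, 17.2% were called with AdipoRonPEG5, 5.2% with AdipoRon and 5.39% between the compounds. Of the 10 chemokine genes, 5 rose with AdipoRonPEG5 and 2 with AdipoRon. Marco, a scavenger receptor, was at 58.0, 78.8 and 71.2 CPM in AdipoRonPEG5 libraries, at 87.2, 51.4 and 41.2 CPM in AdipoRon libraries and at 3.27, 2.54 and 5.28 CPM in vehicle libraries. The compounds shared a range far above vehicle (log2 fold change 4.26 ± 0.32 and 4.05 ± 0.31, adjusted p = 3.64e-05 and 0.000389). The 10 markers together summed to 696, 689 and 723 CPM in AdipoRonPEG5 libraries, to 789, 522 and 445 CPM in AdipoRon libraries and to 203, 187 and 269 CPM in vehicle libraries. Of the 10, 0 were at 0 counts in any group. Their part in the chemokine rises was not tested, and the ratios to them are given as a description. These ratios depend on which markers are summed, as the 10 rose unequally. By mean, Marco was at 69.3 CPM in AdipoRonPEG5 and 3.70 CPM in vehicle livers, and the marker Clec4f at 122.2 and 63.4 CPM. Ratios to single markers were not taken.

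Per 100 CPM of Kupffer markers, Cxcl9 was at 3.6, 2.16 and 3.22 CPM in AdipoRonPEG5 libraries, at 2.18, 1.48 and 2.56 in AdipoRon libraries and at 2.03, 3.08 and 1.49 in vehicle libraries. Ccl6 was at 1.57, 1.85 and 1.25 in AdipoRonPEG5 libraries, at 1.03, 1.39 and 1.21 in AdipoRon libraries and at 1.03, 1.2 and 2.07 in vehicle libraries. Both genes, called as higher in CPM, overlapped between all groups on this scale. Ccl5 stood at 0.337, 0.219 and 0.282 in AdipoRonPEG5 libraries, at 0.172, 0.149 and 0.23 in AdipoRon libraries and at 0.215, 0.16 and 0.166 in vehicle libraries, so that AdipoRonPEG5 lay just above vehicle. Ccl9 was at 6.17, 7.74 and 6.43 in AdipoRonPEG5 libraries and at 4.28, 5.77 and 6.16 in AdipoRon libraries, against 18.8, 20.5 and 20 in vehicle libraries. Cxcl12 was at 41.1, 46.7 and 42.8 in AdipoRonPEG5 libraries and at 42.2, 59.1 and 66.6 in AdipoRon libraries, against 160, 190 and 109 in vehicle libraries. Ccl24 was at 0.0532, 0.158 and 0.154 in AdipoRonPEG5 libraries and at 0.188, 0.0425 and 0.0921 in AdipoRon libraries, against 0.367, 0.56 and 0.608 in vehicle libraries. Ccl9, Cxcl12 and Ccl24 thus lay lower per marker with both compounds, without overlap, while their CPM overlapped vehicle for AdipoRonPEG5. The marker sum was itself higher with both compounds, so any gene with unchanged CPM lies lower on this scale. These lower ratios are therefore set by the markers and are not a trait of these genes. Cxcl1 was at 0.392 to 0.992 in AdipoRonPEG5 libraries and 1.06 to 2.37 in AdipoRon libraries, against 1.85 to 4.45 in vehicle libraries, so that AdipoRonPEG5 lay lower and AdipoRon overlapped vehicle. Ccl2 (0.0553 to 0.188 over the 9 libraries), Cxcl10 (0.332 to 0.887) and Cxcl13 (0.076 to 0.521) overlapped between all groups.

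**Figure D5:**
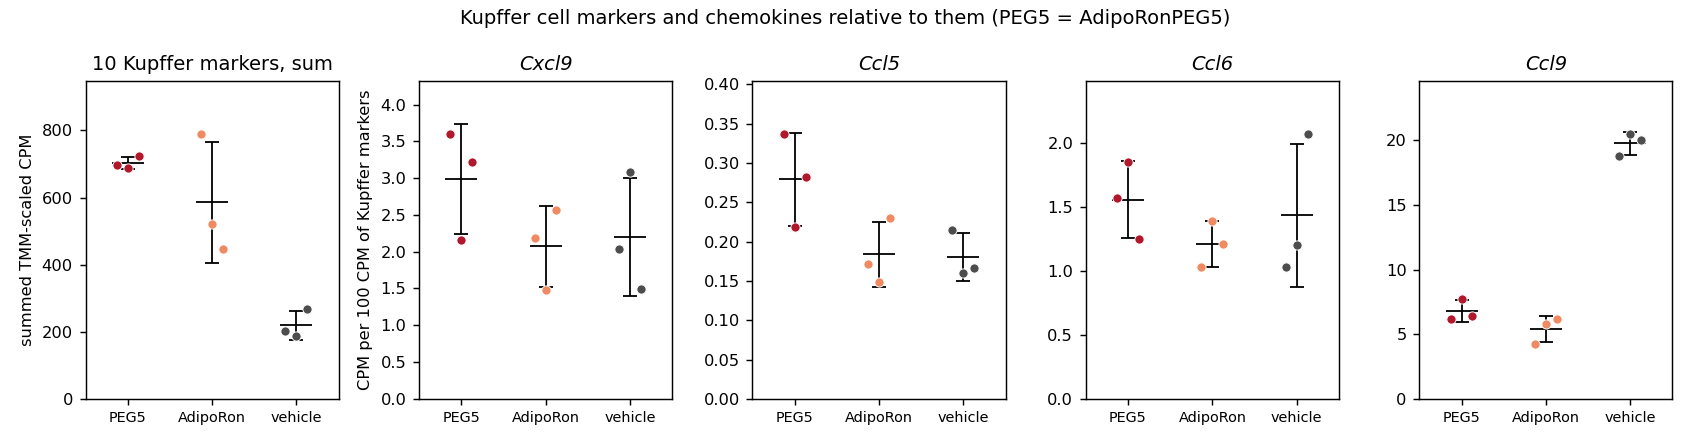
Left, the summed TMM-scaled CPM of 10 Kupffer cell markers in each library; right, the CPM of Cxcl9, Ccl5, Ccl6 and Ccl9 per 100 CPM of these markers, with the mean and SD of 3 and axes from 0. The marker sum lies at 445 CPM or more with either compound and at 269 CPM or less with vehicle, and Ccl9 per marker lies at 7.74 or less with the compounds and at 18.8 or more with vehicle.

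Markers of other leukocytes had lower summed CPM. These sums are not scaled by gene length and cover lists of different size, so they do not rank the cell types. The 7 monocyte markers summed to 16.7, 13.1 and 11.5 CPM in AdipoRonPEG5 libraries, to 10.4, 7.33 and 7.52 CPM in AdipoRon libraries and to 5.37, 5.31 and 5.50 CPM in vehicle libraries, in 3 groups that did not overlap. Most of these sums was Plac8, at means of 8.90, 5.98 and 3.95 CPM in the AdipoRonPEG5, AdipoRon and vehicle groups. The marker F13a1 was at 0.35, 0.24 and 0.32 CPM. Of 3 tested monocyte markers, 3 rose with AdipoRonPEG5 (5 without AdipoRon library 3) and 0 with AdipoRon. Beside this count and those of the cell types below, 17.2% of all genes were called with AdipoRonPEG5 and 5.2% with AdipoRon. Plac8 was at 1.17 ± 0.17 with AdipoRonPEG5 (adjusted p = 0.00153). For S100a4 the value was 2.43 ± 0.47 (adjusted p = 0.00572) with AdipoRonPEG5, and 3.19 without vehicle library 1. The 12 T and NK cell markers summed to 5.06 to 6.66 CPM with AdipoRonPEG5, 4.92 to 7.84 CPM with AdipoRon and 2.54 to 4.61 CPM with vehicle. Of the 6 tested, 2 rose and 1 fell with AdipoRonPEG5 (1 called without vehicle library 2, AdipoRonPEG5 library 1 or 3, or both libraries of high acute phase genes). The 9 neutrophil markers summed to 4.25 to 10.1 CPM, 4.1 to 4.89 CPM and 1.27 to 1.93 CPM in the AdipoRonPEG5, AdipoRon and vehicle groups, and Ly6g and Mmp8 were at 0 counts in all 9 libraries. The 1 neutrophil marker tested, Csf3r, rose with AdipoRonPEG5 by 2.23 ± 0.27 (adjusted p = 0.00058, passing in all alternatives) and with AdipoRon by 1.87 ± 0.27 (adjusted p = 0.00518). Csf3r made up most of the neutrophil sums, at means of 4.60, 3.58 and 0.99 CPM in the AdipoRonPEG5, AdipoRon and vehicle groups. The 8 B cell markers summed to 6.96 to 8.51 CPM, 5.47 to 6.97 CPM and 2.54 to 3.65 CPM in the same groups. Of 8 stellate cell markers 0 passed with either compound (1 with AdipoRonPEG5 without vehicle library 1 or 3 or both libraries of high acute phase genes), and of 8 endothelial markers 1 rose with AdipoRonPEG5 (0 without vehicle library 2 or 3, AdipoRonPEG5 library 2 or 3, or both libraries of high acute phase genes). The part of these cells in the chemokine changes was not tested.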

How the data were processed

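The authors deposited 1 table for the 9 liver libraries. Per the file headers, it gives each gene's raw read counts in every library, and the authors' FPKM for the same genes. STAR 2.5, TopHat, HTSeq 0.6.1, DESeq2 and edgeR are listed, with no role or order, per the submitters' processing notes. The genome build, annotation and strand setting are not given in the sources used here. Without strand, reads of a gene and of an antisense neighbour cannot be told apart.

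The counts entered 1 edgeR 4.0.16 quasi-likelihood fit in R 4.3.3 with 3 group means (TMM, filterByExpr, no covariate). The threshold was 0.05 for p-values adjusted by Benjamini-Hochberg over the 13151 genes tested. Each compound was compared with vehicle, and AdipoRonPEG5 with AdipoRon. Of the genes called for AdipoRonPEG5, 1256 were higher and 1004 lower (1700 and 584 with total-count scaling); for AdipoRon 500 were higher and 184 lower (883 and 64). Errors of log2 fold changes are standard errors, and intervals are at the 95% level. FPKM served only for levels between genes.

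The 10 genes, the other lists (205 of 207 symbols found, 3 through an older symbol) and the naming rule were chosen with earlier results of these data known. The rule named all 10 chemokine genes, their receptors, other chemokine ligands or receptors that were called, Ifng, Irf1, Tnf, Il1b and Nfkbia, and at most 2 called members of any other list, by lowest p; some genes it named are not reported here. The alternatives comprised DESeq2 1.42.0, limma-voom (limma 3.58.1), scaling by total counts or by RLE size factors, no filter on low counts or one at a mean of 1 CPM, a replicate block, only the 2 groups compared, vehicle library 1 thinned to 15793369 counts, each library left out in turn, and both libraries of high acute phase genes left out. Simulated counts with known changes were used to test the fit. Promoters came from RefSeq (GRCm38.p6), where 7 of the 10 genes were found by symbol.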

Additional observations from a re-analysis of the deposited data

How the results depend on the processing

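With AdipoRonPEG5, the rises of Cxcl9, Ccl5 and Ccl6 passed in all alternatives, and the count of called chemokine genes was 3 to 5 with single libraries left out. For AdipoRon it was 0 to 2 with single libraries left out, 4 with total-count scaling, no filter or DESeq2, and 1 with only the compared groups or without both libraries of high acute phase genes. Between the compounds it was 0 to 2 with single libraries left out, 2 with no filter, with DESeq2 or without both of those libraries, and 0 with a replicate block. Over all genes, leaving out single libraries gave 1337 to 2334, 250 to 624 and 233 to 1032 calls in the 3 comparisons, against 2260, 684 and 709. The first fell below 2260 by over 1.5 times without vehicle library 2 or AdipoRonPEG5 library 2 or 3, the second without vehicle library 1 or 2, AdipoRon library 1 or 2 or AdipoRonPEG5 library 2, and the third whichever 1 library of the compounds was left out. For AdipoRon there were 325 calls with only the compared groups. Replicate numbers did not pair the libraries: across groups, the 9 same-numbered pairs had correlations of deviations from -0.268 to 0.0772, and 0 of 9 libraries correlated best with its own number. The replicate block gave 444 calls for AdipoRon and 338 between the compounds; it ended the calls of Ccl9 between the compounds and of Il1b and Ccrl2 with AdipoRonPEG5, and made that of Ccl5 with AdipoRon. Signs turned only for values that had not passed. With single libraries left out, Ccl24 ran from -0.63 to 0.026 and Cxcl1 from -1.05 to 0.11 with AdipoRonPEG5, and Cxcl12 from -0.12 to 0.011 with AdipoRon. Between the compounds Cxcl10 ran from -0.26 to 0.30, Cxcl12 from -0.070 to 0.016, Cxcl13 from -0.66 to 1.26 and Ccl24 from -0.15 to 1.47. Without both libraries of high acute phase genes Ccl24 was at 0.36 with AdipoRonPEG5 and Cxcl12 at 0.021 between the compounds; Cxcl12 was at 0.049 with AdipoRon under total-count scaling, and Cxcl13 at 0.13 between the compounds with limma-voom. The causes were not tested. Depth limits Ccl2, Ccl5, Ccl24 and Cxcl13, which had under 10 counts in some libraries.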

Other observations

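The genes whose values over the 9 libraries were most like those of a chemokine gene were listed as a description, by Pearson correlation of log2(CPM + 1) among 11041 or 11042 genes with a mean of at least 1 CPM. The libraries share their groups, so that any gene that follows the groups scores high. For Ccl6 the nearest were Rhog, a small GTPase (0.993), and Lgmn, a lysosomal protease (0.98). For Cxcl9 they were Adamdec1, a metalloprotease-like protein of macrophages (0.986), and Gbp6, an interferon-inducible GTPase (0.975). Ccl5 had Kctd17 and Rgs2 (both 0.983), Ccl2 had Selplg (0.968) and Ly6a (0.958), and Cxcl10 had Dysf (0.984) and Irak3 (0.978). Ccl9, which did not follow its neighbours on chromosome 11, had Gpx3 (0.957), and Cxcl1 had Dnaja4 (0.98) and Zbtb7b (0.978). The nearest genes were less close for Cxcl12 (Mynn, 0.907, and Tmem106a, 0.894) and Ccl24 (Fdft1, 0.934, and Desi2, 0.916), and were Mesdc1 (0.963) and Map3k6 (0.956) for Cxcl13.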
